A study of Gallus gallus with 4 samples.

Results

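CYP24A1, the enzyme that starts the breakdown of vitamin D, and the receptor genes VDR and RXRA were followed in chicken embryos, in the part of the primitive streak where progenitors of the presomitic mesoderm (PSM, the tissue from which the somites form) are found. The genes were selected by name from the array annotation, taking every probe set that carried exactly 1 symbol. They are 3 of 13009 named genes and are represented by 6 probe sets, with 1 for CYP24A1, 2 for VDR and 3 for RXRA. CYP24A1 was singled out because its signal differed widely between the same arrays that are described here. Its difference is therefore given as a description with no test, and so are those of the receptors.

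Chicken embryos were electroporated at stage 5 of the Hamburger and Hamilton series, with a plasmid coding for HoxA13 and the nuclear reporter H2B-Venus in the HoxA13 group and for H2B-Venus alone in the control group. Per the series' design text, HoxA13 was driven by the CAGGS promoter, a strong promoter that is not limited to a cell type. The embryos were incubated for 24 h before electroporation, then grew for 14 h at 38 °C and were dissected at 9 somites. Each of the 4 arrays, 2 per group, carried RNA from a pool of 7 embryos. Every value is a linear intensity as deposited, and an SD is over the 2 arrays of a group. The comparison asks what differs in the progenitors when they carry HoxA13.

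Vitamin D acts through its hormone form, calcitriol, which binds the nuclear receptor VDR. VDR pairs with a retinoid X receptor such as RXRA, and the pair binds response elements in DNA. CYP24A1 is among the genes most strongly induced by this pair, and its product removes calcitriol, so the enzyme closes a feedback loop best known from the kidney and gut. RXRA also serves as the partner of the receptors for retinoic acid, thyroid hormone, fatty acids and oxysterols.

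A probe set was read as above background on an array where its intensity exceeded the 99th percentile among the 687 probe sets for viral sequences on the same array. That level was 14.3 and 14.5 for the HoxA13 arrays, against 12.8 and 16.5 for the control arrays. Between 37.8% and 42.7% of the 37695 chicken probe sets exceeded it. The probe set of HOXA13 itself gave 16.3 and 8.09 on the HoxA13 arrays and 11.6 and 24.7 on the control arrays, and it is not known here whether the plasmid's HoxA13 holds its target, so it does not check the labels. The list of streak markers held 10 symbols, of which T and TBXT name the same gene, and all 9 genes had a probe set. Of these, 8 were above background on all 4 arrays. Their groups did not overlap for 6 higher and 1 lower, against 17.0% higher and 16% lower over all chicken probe sets. Among the 6 were CYP26A1, 5.83-fold higher, FGF8, 2.58-fold higher, and EVX1, 3.79-fold higher and near background on the control arrays. The rest of the 6 differed less: CDX2 was 1.33-fold, CDX4 1.37-fold and WNT3A 1.30-fold higher. For TBXT, 1.08-fold higher, the groups overlapped. The 1 lower was MSGN1, with 1399 and 1243.5 on the HoxA13 arrays and 2040 and 1480 on the control arrays. The summed intensity of the 9, most of it from TBXT and CDX4, was 15279 and 14543 on the HoxA13 arrays against 12858 and 11226 on the control arrays, with TBX6 below background on all 4. Each of the 27 hybridisation spike-ins, RNAs added during the procedure, gave more signal in the replicate 2 pair of arrays than in the replicate 1 pair, with a median log2 excess of 0.75. The labels tie the replicate number to no day or batch, so differences are also given between arrays of the same number. In bulk RNA, fewer cells of a type cannot be told apart from less RNA per cell.

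CYP24A1 was a bright transcript in the control embryos and was not above background in the HoxA13 embryos. Its intensity was 1.68 and 1.14 on the HoxA13 arrays and 609 and 661 on the control arrays. Both HoxA13 values lay inside the viral range, where 45.7% and 61.3% of the viral probe sets were brighter on the same array. On the control arrays 0.0% of viral probe sets were brighter, and the signal was 47.5 and 40 times the background level. Only 4.67% and 4.03% of the chicken probe sets were brighter than CYP24A1 on control replicates 1 and 2, while 80.3% and 86.1% were brighter on HoxA13 replicates 1 and 2.

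With each HoxA13 array raised to its own background, CYP24A1 was at least 44.1-fold lower in HoxA13 embryos. The log2 difference of the values as they stand was -8.84, and it was -8.50 between the replicate 1 arrays and -9.18 between the replicate 2 arrays. The control arrays lay close together, with a log2 SD of 0.08 (n = 2). The HoxA13 values are too dim to carry a ratio, so the lower limit is the size that can be read. A single probe set stands for the gene, and its name marks it as one that reads several transcript forms of the same gene, so no second probe set was at hand to compare it with.

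**Figure D1:**
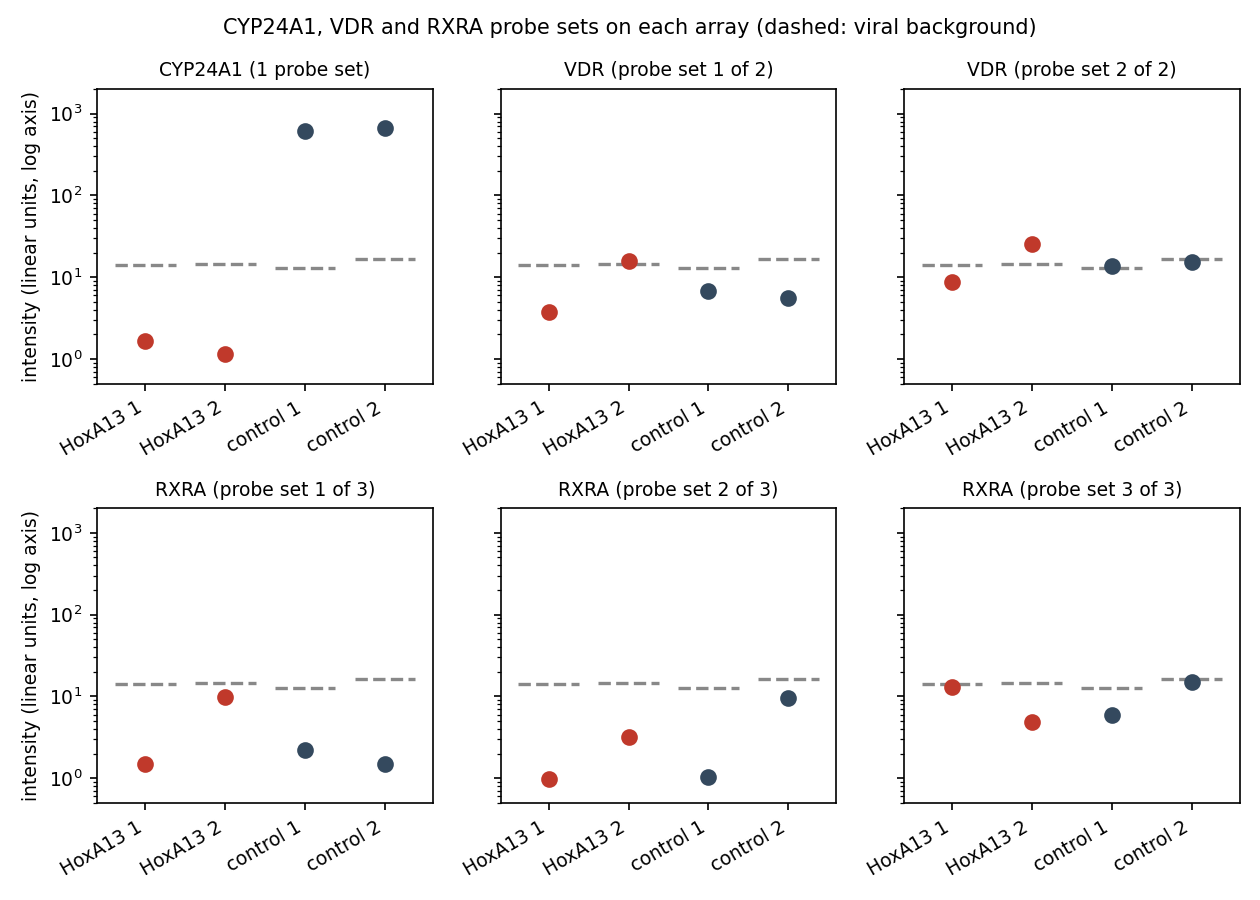
Intensity of each CYP24A1, VDR and RXRA probe set (log axis) on the HoxA13 arrays (red) and the control arrays (dark blue), 1 point per array, with the viral background of each array as a dashed line. CYP24A1 is at 609 and 661 on the control arrays and under 2 on the HoxA13 arrays, while no VDR or RXRA value exceeds 25.2.

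VDR, the receptor of calcitriol, was near background in both groups. Its brighter probe set read 8.63 and 25.2 on the HoxA13 arrays and 13.7 and 15.1 on the control arrays. It was above background on HoxA13 replicate 2, at 1.74 times that level, and on control replicate 1, at 1.07 times, and not on the other arrays. The groups overlapped, and the log2 difference of 0.04 was small beside a log2 SD of 1.09 over the HoxA13 arrays. The difference ran in opposite directions by replicate number, at -0.67 for replicate 1 and 0.74 for replicate 2.

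The second VDR probe set was dimmer against background. It gave 3.74 and 15.7 on the HoxA13 arrays and 6.85 and 5.54 on the control arrays, and it passed background on HoxA13 replicate 2 alone. Both VDR probe sets were thus brightest on HoxA13 replicate 2, one of the arrays on which the spike-ins were brighter. The part of the spike-in difference in this was not tested.

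RXRA, the partner of VDR, was below background at all 3 of its probe sets on all 4 arrays. The first gave 1.505 and 9.78 on the HoxA13 arrays and 2.23 and 1.51 on the control arrays. The second gave 0.97 and 3.19 on the HoxA13 arrays and 1.03 and 9.59 on the control arrays, and its name marks it as one whose probes may also match transcripts of other genes. The third came closest to background, with 13.2 and 4.84 on the HoxA13 arrays and 5.92 and 15.1 on the control arrays. The groups overlapped at each of the 3, and the probe sets did not order the arrays alike. No fold is given for them, since both groups were below background.

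Over the 5 receptor probe sets, 3 of 20 values were above background, all of them for VDR. With background set at the viral 95th percentile in place of the 99th, the brighter VDR probe set was above background on 3 arrays and the third of RXRA on 2. At this signal a receptor transcript present at a low level could not be told from an absent one. The control arrays thus showed a high level of CYP24A1 beside dim receptor signals. By the 99th percentile these were near or below background for VDR and below it for RXRA.

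Among all chicken probe sets, 388 shared the presence pattern of CYP24A1, below background on both HoxA13 arrays and above it on both control arrays. They make up 1.03% of the 37695, and 262 or 0.695% had the opposite pattern. Most were dim: the median of their mean control intensity was 19.8, against 635 for CYP24A1, and the next brightest reached 173. The lower limit of the fold had a median of 1.35 over the 388 and was 11.8 for the next probe set after CYP24A1. In the opposite pattern the highest limit was 2.95. These counts describe the contrast by which CYP24A1 was chosen and support nothing about it.

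**Figure D2:**
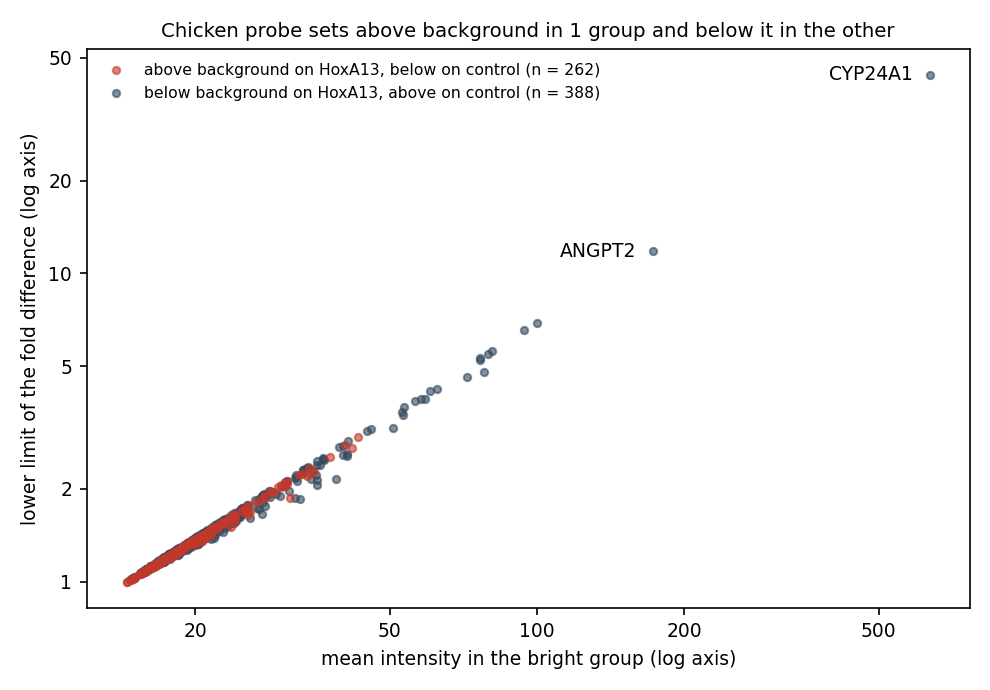
Lower limit of the fold difference against mean intensity in the bright group (both log axes) for the 388 chicken probe sets above background on both control arrays only (dark blue) and the 262 above it on both HoxA13 arrays only (red), 1 point per probe set. CYP24A1 lies at 635 and 44.1-fold, apart from the others.

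The genes most like CYP24A1 were taken as the 5 whose brightest probe set had the smallest Euclidean distance to it on log2(intensity + 16) over the 4 arrays, among 13008 named genes. In order of distance they were HHEX, ANGPT2, MTUS1, FLT1 and DPYS, at 2.13, 2.63, 2.84, 2.89 and 3.03. HHEX, a homeobox gene of early endoderm and of blood vessel precursors, gave 44.2 and 9.39 on the HoxA13 arrays and 336 and 419 on the control arrays. ANGPT2, a secreted ligand that acts on vessels, gave 0.70 and 8.91 on the HoxA13 arrays and 141 and 205 on the control arrays. It was the only one of the 5 that was, like CYP24A1, below background on both HoxA13 arrays at its brightest probe set. A dimmer FLT1 probe set also had this pattern, at least 4.23-fold lower.

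MTUS1, which codes for a microtubule-associated protein, gave 44.2 and 18.9 on the HoxA13 arrays and 190 and 288 on the control arrays. FLT1, a receptor for vascular endothelial growth factors, gave 33.6 and 0.99 on the HoxA13 arrays and 212 and 153 on the control arrays. DPYS, an enzyme of pyrimidine breakdown, gave 44.3 and 60.0 on the HoxA13 arrays and 368 and 333 on the control arrays. MTUS1 and DPYS stayed above background in both groups, and FLT1 and HHEX did so on HoxA13 replicate 1 but not on HoxA13 replicate 2. These genes were found by their likeness to CYP24A1 in the same 4 arrays and are given without a test.

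**Figure D3:**
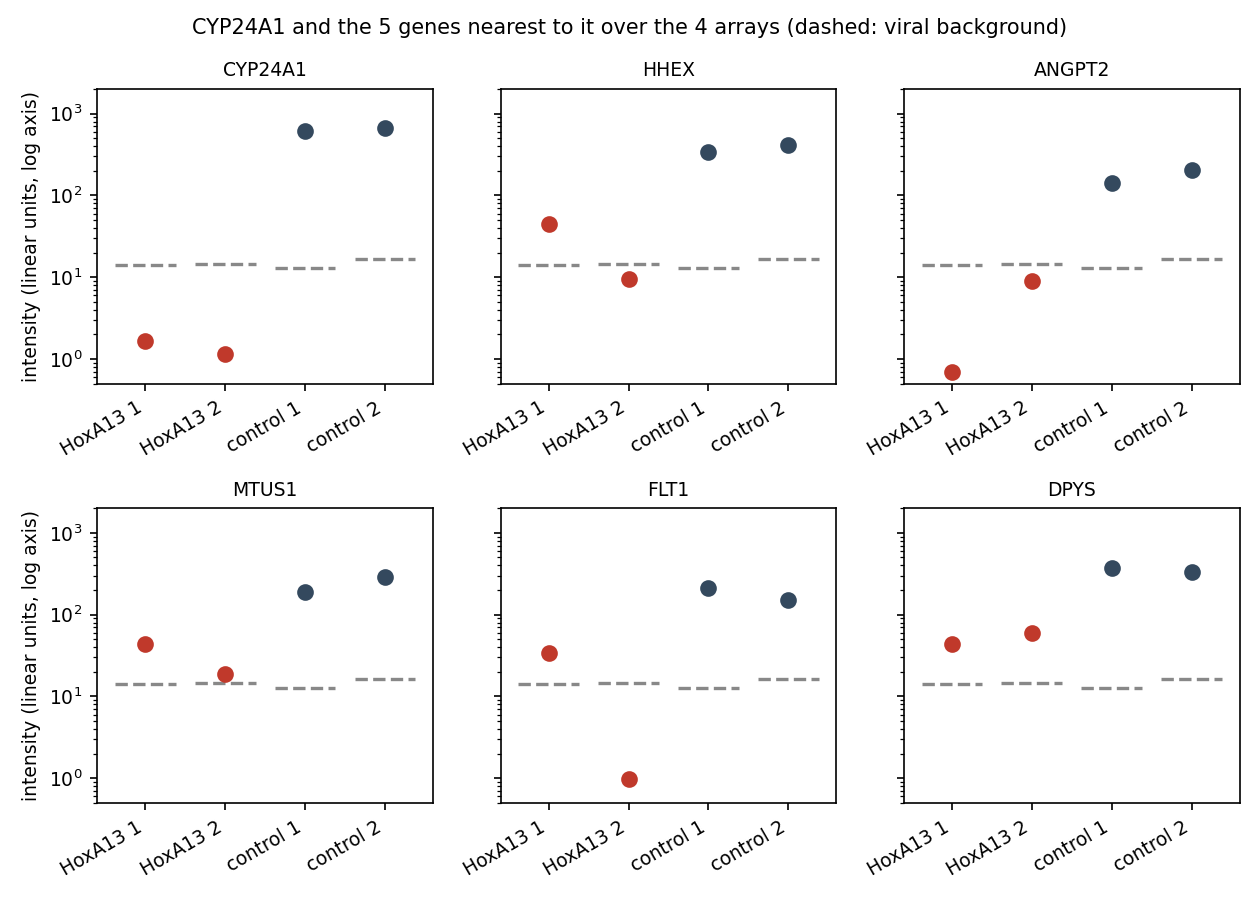
Intensity (log axis) of CYP24A1 and of its 5 nearest genes on the HoxA13 arrays (red) and the control arrays (dark blue), 1 point per array, with the viral background dashed. All 6 are lower on both HoxA13 arrays, and of the probe sets drawn only those of CYP24A1 and ANGPT2 are below background on both.

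Markers of other tissues that the dissected region could hold were set beside CYP24A1. Of 12 endoderm markers 11 were measured, and their summed intensity was 178 and 124 on the HoxA13 arrays and 488 and 564 on the control arrays. Their groups did not overlap for 5 lower and 1 higher, where 16% of all chicken probe sets were lower and 17.0% higher. The 5 lower were HHEX, FOXA2, GATA5, GATA6 and CXCR4. The 1 higher was HNF4A, above background on HoxA13 replicate 1 only. The defining markers were mixed: SOX17, GATA4, GATA6 and CER1 were below background on all arrays, while FOXA2 was just above it on all 4, at 19.4 and 15.7 on the HoxA13 arrays and 20.6 and 19.9 on the control arrays. CXCR4 was above background on both control arrays only, at least 1.22-fold lower in HoxA13. GATA5 was above it on control replicate 2 only, so no lower limit is given. APOA1, above background on all 4 arrays, gave 44.1 and 39.75 on the HoxA13 arrays and 40.2 and 28.6 on the control arrays. Its groups overlapped, as did those of TTR, above background on 1 array of each group. Of 18 markers of blood and endothelium 15 were measured, with sums of 122 and 75.9 on the HoxA13 arrays and 429 and 468 on the control arrays. Here 5 were lower and 3 higher without overlap, beside the same shares over all chicken probe sets. The 3 higher, TIE1, HBA1 and HBAD, were below background on all arrays, as was FLI1 among the 5 lower. The other lower ones, FLT1, ANGPT2, LMO2 and PECAM1, were above background on at least 1 control array. In all, 10 were below background on all arrays, including KDR, CDH5 and TEK. LMO2, a blood and endothelial factor, was above background on both control arrays only, with 8.33 and 2.0 on the HoxA13 arrays and 13.9 and 23.6 on the control arrays. PECAM1, an endothelial adhesion molecule, gave 3.66 and 4.11 on the HoxA13 arrays and 14.2 and 15.8 on the control arrays, above background on control replicate 1 only.

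On the control arrays both sums rested mostly on genes that are also among the 5 most like CYP24A1 in intensity. Without HHEX the endoderm sum was 134 and 115 on the HoxA13 arrays and 152 and 145 on the control arrays. Without ANGPT2 and FLT1 the blood and endothelium sum was 87.5 and 66.0 on the HoxA13 arrays and 76.4 and 109 on the control arrays. Both removals were chosen after seeing the values. Much of what remained was background signal, so the reduced sums do not show whether either tissue changed. Markers of the intermediate mesoderm and kidney, the tissue in which CYP24A1 is best known, had 5 of 9 genes measured, and 3 were below background on all arrays, LHX1 among them. PAX2 gave 7.43 and 5.31 on the HoxA13 arrays and 14.9 and 15.99 on the control arrays, above background on control replicate 1 alone. SALL1, which streak tissue may also express, was 3594 and 3466 on the HoxA13 arrays and 3681 and 3781 on the control arrays and made up nearly all of that list's sum. Markers of surface ectoderm, 8 of 10 measured, summed to 2191 and 1297 on the HoxA13 arrays and 3073 and 2362 on the control arrays, most of it from EPCAM at 1575.5 and 1029.5 on the HoxA13 arrays and 2603 and 1687 on the control arrays. Without overlap, 2 were lower, EPCAM and DLX6, and 1 was higher, GRHL3, beside 16% lower and 17.0% higher over all chicken probe sets. DLX6 was above background on control replicate 2 only and GRHL3 on HoxA13 replicate 2 only. The GRHL3 groups were apart by 7.34 on HoxA13 replicate 1 against 7.00 on control replicate 1, both below background. The groups overlapped for TFAP2A, WNT6, DLX5, TP63 and CDH1. For the 8 neural plate markers the sums were 3044 and 2771 on the HoxA13 arrays and 2042 and 1789 on the control arrays. Most of it came from CDH2, at 2373 and 2115 on the HoxA13 arrays and 1439 and 1052 on the control arrays. Groups did not overlap for 3 of the 8, all higher, and for 0 lower, against 17.0% higher and 16% lower over all chicken probe sets. The 3 are CDH2, PAX6 and NCAM1, and the groups overlapped for SOX1, SOX2, SOX3, ZIC2 and OLIG2. Of the latter, SOX1 was below background on all arrays. The log2 differences were 0.80 for SOX2, -0.30 for SOX3, -0.07 for ZIC2 and 0.04 for OLIG2. Among the 3, PAX6 gave 30.1 and 19.9 on the HoxA13 arrays and 8.69 and 10.3 on the control arrays. NCAM1 gave 19.9 and 16.7 on the HoxA13 arrays and 12.6 and 9.66 on the control arrays. Both PAX6 and NCAM1 were above background on the HoxA13 arrays only. The part of any of these tissues in the CYP24A1 difference was not tested.

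Other genes of vitamin D metabolism and action were compared with limma, fitted to the log2 intensities of the 37695 chicken probe sets together; the tests were two-sided, with a Benjamini-Hochberg adjusted p under 0.05 as the threshold. Each gene stood by its brightest probe set. Over 4 lists, 68 of 83 genes were measured, 34 were above background on at least 2 arrays and 23 on none. The fit called 0 higher and 0 lower, as it did over all chicken probe sets (0.0% in each direction, smallest adjusted p = 0.62), and 2 of the 68 had an unadjusted p under 0.05, both lower in HoxA13 (background 3.26% lower and 2.65% higher). A fit on log2(intensity + 16) over the 15818 probe sets above background on at least 2 arrays, called the offset fit here, also called 0 of the 34 it tested, against 0.019% higher and 0.0632% lower over all it tested. Of the 68 genes, 0 had the presence pattern of CYP24A1 at their brightest probe set, against 1.03% of all chicken probe sets. With so low a share, this count does not set the 68 genes apart.

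Groups did not overlap for 10 genes higher in HoxA13, or 14.7%, and 11 lower, or 16.2%, against 17.0% and 16% of all chicken probe sets. Pooled over the 4 lists, the pathway genes thus separated the groups about as often as other probe sets did. The shares differed between the lists and are given with each below, except for synthesis, transport and uptake, with 1 gene in each direction. Of the 34 genes above background on at least 2 arrays, 6 were higher and 2 lower without overlap. The shares over all 15818 chicken probe sets that bright were 18.3% higher and 14.7% lower.

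**Figure D4:**
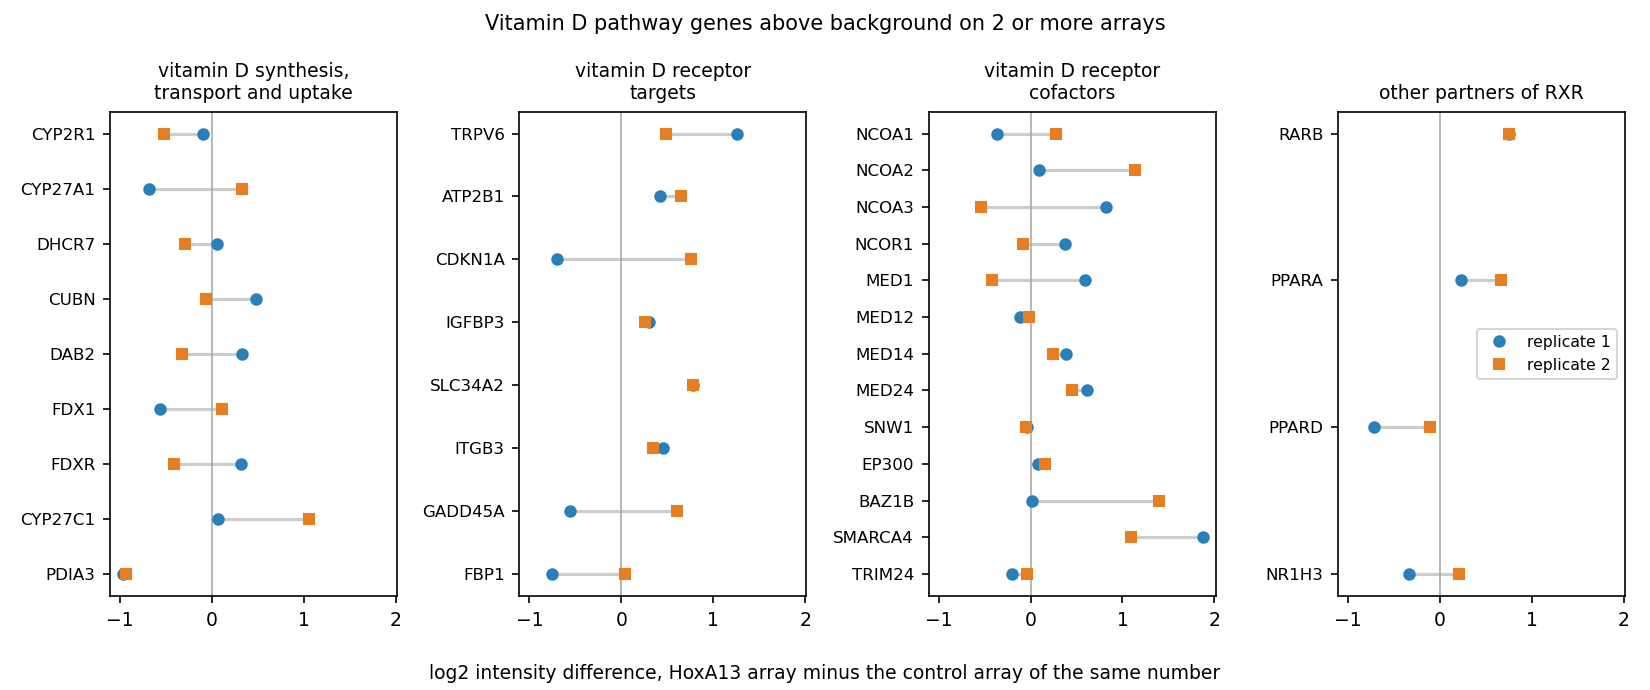
Difference in log2 intensity between the HoxA13 array and the control array of the same replicate number, for the 34 pathway genes above background on at least 2 arrays, with circles for replicate 1 and squares for replicate 2. The values lie on both sides of 0, and SMARCA4 has the highest replicate 1 value, 1.87, with 1.09 for replicate 2.

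Of 15 genes of vitamin D synthesis, transport and uptake, 13 were measured and 9 were above background on at least 2 arrays. The gene for the activating enzyme CYP27B1 had no probe set under its own symbol and was not analysed here. DHCR7, the sterol reductase that uses up the precursor of vitamin D3, was well above background, with 506 and 380 on the HoxA13 arrays and 488 and 467 on the control arrays. FDX1, the ferredoxin that feeds electrons to mitochondrial cytochromes such as CYP24A1, gave 256 and 274 on the HoxA13 arrays and 380 and 255 on the control arrays. For both genes the groups overlapped.

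CYP2R1, which makes the circulating form of vitamin D in the liver, was just above background, at 20.8 and 15.1 on the HoxA13 arrays and 22.3 and 21.7 on the control arrays. PDIA3, a protein folding enzyme that has also been described as a calcitriol binder at the cell membrane, gave 98.0 and 46.4 on the HoxA13 arrays and 192 and 88.6 on the control arrays, a log2 difference of -0.95 ± 0.68 (SE, limma adjusted p = 0.989). Its groups overlapped there. The 2 dimmer PDIA3 probe sets were lower without overlap and below background on both HoxA13 arrays. One gave 10.5 and 9.26 on the HoxA13 arrays and 29.2 and 11.3 on the control arrays, above background on control replicate 1 only. The other gave 12.1 and 12.9 on the HoxA13 arrays and 13.1 and 22.4 on the control arrays, above background on both control arrays. CYP27C1, a relative known from zebrafish and human as a vitamin A desaturase, gave 78.0 and 79.5 on the HoxA13 arrays and 74.2 and 38.2 on the control arrays, and its 2 other probe sets were below background on all arrays. The median log2 difference of the list was -0.18, beside 0.02 over all chicken probe sets.

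Of 33 known or proposed targets of the vitamin D receptor, CYP24A1 not counted, 28 were measured, 8 were above background on at least 2 arrays and 14 on none. Their median log2 difference was 0.001, and it was 0.34 over the 8 above background, beside 0.04 over all chicken probe sets that bright. GADD45A, a stress response gene, gave 414 and 540 on the HoxA13 arrays and 608 and 355 on the control arrays. ATP2B1, a pump that exports calcium across the cell membrane, gave 622 and 241 on the HoxA13 arrays and 465 and 153 on the control arrays. Its values followed the replicate number more than the group.

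CDKN1A, a cell cycle inhibitor, gave 85.5 and 102 on the HoxA13 arrays and 139 and 60.7 on the control arrays. The gluconeogenic enzyme gene FBP1 gave 42.3 and 42.2 on the HoxA13 arrays and 71.6 and 40.9 on the control arrays. For GADD45A, ATP2B1, CDKN1A and FBP1 alike, the groups overlapped. SLC34A2, a phosphate transporter gene, gave 46.7 and 25.4 on the HoxA13 arrays and 27.2 and 14.8 on the control arrays (log2 difference 0.78 ± 0.60, SE, limma adjusted p = 0.989), and the integrin gene ITGB3 gave 58.4 and 37.4 on the HoxA13 arrays and 42.8 and 29.5 on the control arrays.

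Targets were lower without overlap in 7 of 28, or 25.0%, and higher in 2, or 7.14%, against 16% and 17.0% of all chicken probe sets. All 7, which are CALB1, SPP1, TNFSF11, PTH, PTHLH, ENPP1 and CYP3A4, were below background on both HoxA13 arrays and above it on at most 1 control array. SPP1 and PTH, named after their values were seen, were the 2 genes with an unadjusted p under 0.05. SPP1, which codes for the bone matrix protein osteopontin, gave 5.73 and 6.50 on the HoxA13 arrays and 18.3 and 16.4 on the control arrays. It was above background on control replicate 1 only, so no lower limit is given, and it did not pass (limma adjusted p = 0.709). PTH, the parathyroid hormone gene, was below background on all 4 arrays at 1.99 and 1.87 in the HoxA13 group and 4.46 and 7.68 in the control group. CALB1, the gene of an intestinal calcium-binding protein, was at or below 6.80 on all arrays. TRPV6, a calcium channel gene, was above background on both replicate 1 arrays only, with 41.6 and 6.39 on the HoxA13 arrays and 17.4 and 4.57 on the control arrays.

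Of 20 cofactors and partners of VDR, 16 were measured and 13 were above background on at least 2 arrays. RXRG, the other retinoid X receptor gene measured, was below background on all arrays at 10.5 and 9.36 in the HoxA13 group and 8.50 and 2.87 in the control group. SNW1, a coactivator that binds VDR, gave 727 and 532 on the HoxA13 arrays and 745 and 552 on the control arrays. NCOR1, a corepressor, gave 215 and 205 on the HoxA13 arrays and 166 and 217 on the control arrays. CREBBP, a coactivator gene, was below background on all 4 arrays, and KAT2B, another, was above it on 1.

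The Mediator subunit gene MED1, which contacts nuclear receptors, gave 188 and 230 on the HoxA13 arrays and 124 and 307 on the control arrays. MED24, another subunit gene, gave 189 and 253 on the HoxA13 arrays and 123 and 184 on the control arrays. NCOA2, a coactivator gene, gave 18.2 and 44.4 on the HoxA13 arrays and 17.0 and 20.2 on the control arrays. Among these 3 the groups were apart for MED24 alone, by a small margin.

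SMARCA4, the ATPase of a chromatin remodelling complex, gave 120 and 208 on the HoxA13 arrays and 32.7 and 97.7 on the control arrays, 2.80-fold higher. It did not pass in limma (log2 difference 1.48 ± 0.75, SE, adjusted p = 0.971) or in the offset fit (adjusted p = 0.789). It was the 1 gene of the 34 that passed when the replicate number was added to the offset fit as a block (adjusted p = 0.0284), a fit that called 0.335% of the 15818 higher. BAZ1B, a subunit of a remodelling complex that binds VDR, gave 161 and 207 on the HoxA13 arrays and 160 and 78.4 on the control arrays, and its 2 dimmer probe sets had log2 differences of -0.56 and -0.02. Groups did not overlap for 4 of the 16 genes, or 25.0%, all higher, and for 0 lower, against 17.0% higher and 16% lower over all chicken probe sets. The 4 are MED24, BAZ1B, SMARCA4 and RXRG, the last of them below background. The median log2 difference was 0.14 (0.02 over all chicken probe sets).

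Of 15 other receptors that share RXR as a partner, 11 were measured, 4 were above background on at least 2 arrays and 6 on none. RARB, a retinoic acid receptor gene, gave 93.7 and 58.9 on the HoxA13 arrays and 55.7 and 35.0 on the control arrays, 1.68-fold higher, and did not pass (limma adjusted p = 0.989). Its lower HoxA13 value was just above its higher control value, and at its second brightest probe set, with 68.9 and 46.0 on the HoxA13 arrays and 48.2 and 20.1 on the control arrays, they overlapped. PPARD and PPARA, receptors for fatty acids, did not pass either (limma adjusted p = 0.995 and 0.992). PPARD, lower in HoxA13, gave 56.4 and 76.1 on the HoxA13 arrays and 92.4 and 82.2 on the control arrays. PPARA, higher in HoxA13, gave 23.5 and 26.6 on the HoxA13 arrays and 19.98 and 16.8 on the control arrays. NR1H3, an oxysterol receptor gene, gave 42.3 and 34.3 on the HoxA13 arrays and 53.6 and 29.7 on the control arrays. In this list 3 genes were higher and 3 lower without overlap, or 27.3% each, against 17.0% and 16% of all chicken probe sets. Of these, PPARG, THRA and NR1I3 were below background on all arrays. The median log2 difference of the list was 0.39, with 6 of its 11 genes below background on every array.

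The relative CYP26A1, which breaks down retinoic acid as CYP24A1 breaks down vitamin D, was 808 and 443 on the HoxA13 arrays and 112 and 93.7 on the control arrays, 5.83-fold higher. Like CYP24A1, it is described here without a test.

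The genes beside CYP24A1 on its chromosome were looked up in the RefSeq gene table, taking the 5 before and the 5 after it. Only 3 of the 10 had a probe set under their name, and the others are numbered loci, long noncoding RNAs among them. PFDN4, a subunit gene of the prefoldin chaperone, is the nearest protein-coding gene on one side. It was bright in both groups, at 891 and 1033 on the HoxA13 arrays and 1198 and 1307 on the control arrays, a log2 difference of -0.38 ± 0.41 (SE, limma adjusted p = 0.997). DOK5, an adaptor of receptor tyrosine kinases, and BCAS1, a gene of myelinating glia in mammals, were below background on all arrays. Without overlap, PFDN4 and DOK5 were lower in HoxA13, as were 16% of all chicken probe sets, while the groups overlapped for BCAS1. The fit called 0 of the 3, as it called 0 over all chicken probe sets.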

How the data were processed

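Per the labels, total RNA was extracted with Trizol and amplified in 2 cycles before hybridisation to a chicken array. The authors deposited 1 linear intensity per probe set, for 38535 probe sets. R 2.12.1 is the only tool in the submitters' processing notes. How probe sets were summarised, background-corrected and scaled was not given in the sources, and the intensities were used as deposited. Gene names came from the supplied platform annotation, which gives 1 symbol to 27168 of 37695 chicken probe sets. RefSeq's table (assembly GRCg7b) served for names and neighbours, and no coordinates are given. Groups and replicate numbers came from the sample titles. The labels call the arrays biological replicates, and the p-values refer to the spread between pools.

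HoxA13 minus control was fitted with limma 3.58.1 in R 4.3.3 (lmFit, eBayes) on log2 intensity of all chicken probe sets, with no filter. The code was checked on simulated data. Where a group was below background on both arrays and the other above it on both, the fold is a lower limit. It comes from mean log2 intensities with each dim array raised to its background. The members, the lists, the markers and the offset fit (offset 16, eBayes with trend and robust estimation) were chosen with earlier results of these data known. HHEX, ANGPT2 and FLT1 were among those results. Besides all member probe sets, the naming rule took the 4 brightest genes of each list, the 4 with the smallest unadjusted p among those above background on both arrays of a group, the neighbours, the 5 nearest genes and CYP26A1. Alternatives were the offset alone, the offset fit, a background filter, the viral 95th percentile, quantile normalization, a replicate block and leaving out each array. With 2 arrays against 2, an exact permutation test (two-sided) has a smallest p of 0.333 and was not used. The number of arrays limits the precision. Sequences of the genes were not used here.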

Additional observations from a re-analysis of the deposited data

Results flagged for a closer look

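Reporter probe sets lie outside the comparison of chicken genes. The brightest gave 7038 and 7458 on the HoxA13 arrays and 1293 and 1454 on the control arrays, 5.28-fold higher, and is listed here because its signal exceeds that of the control arrays. A second gave 109 and 76.3 on the HoxA13 arrays and 3.67 and 2.59 on the control arrays, below background there, and was at least 6.25-fold higher. Both plasmids carry H2B-Venus. Which of the 57 reporter probe sets read it is not stated. Its part in the CYP24A1 difference was not tested.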

How the results depend on the processing

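The HoxA13 values of CYP24A1 are below background, so the size of its difference depends on how dim values are handled. The log2 difference was -5.22 on log2(intensity + 16), in the offset fit and in that fit with the replicate block. It was between -9.12 and -8.56 when 1 array was left out. The lower limit was 6.06 on the log2 scale (66.9-fold) with background set at the viral 95th percentile. The log2 difference of the brighter VDR probe set ranged from -0.74 to 0.81 over the fits without 1 array, and that of the dimmer one from -0.72 to 1.35. The RXRA probe sets, below the viral 99th percentile on all arrays, changed sign as well. No direction can be read for either receptor.

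Over all chicken probe sets the planned fit called 0 higher and 0 lower. The offset fit called 3 higher and 10 lower, the offset fit with the replicate block 53 higher and 107 lower, and the filter on background alone 0 higher and 1 lower. The replicate block on log2 intensity, the offset without filter, quantile normalization and the fits without 1 array called 0. The labels do not say what the number stands for. Deviations of arrays of equal number correlated at 0.06 over all chicken probe sets and 0.30 over those above background on the offset scale. With the block, 1 gene of the cofactor list was called, SMARCA4 (limma adjusted p = 0.0284, log2 difference 1.23), and 0 of the other lists and neighbours. Under quantile normalization GADD45A and CDKN1A changed sign, to -0.030 and -0.022. Among uncalled genes close to 0, leaving out 1 array changed the sign for DHCR7 (-0.329 to 0.085), FDX1 (-0.520 to 0.055), FBP1 (-0.761 to 0.046), SNW1 (-0.270 to 0.181) and NR1H3 (-0.492 to 0.362). It also did so for GADD45A (-0.362 to 0.415), ATP2B1 (-0.264 to 1.335), CDKN1A (-0.567 to 0.624), MED1 (-0.567 to 0.742), NCOR1 (-0.042 to 0.341) and NCOA2 (-0.029 to 1.259). The cause was not tested. The summed endoderm markers were 0.29 times the control level in the HoxA13 group, and 0.84 times without HHEX. For blood and endothelium the values were 0.22, and 0.83 without ANGPT2 and FLT1. The reduced ratios do not show whether either tissue changed, since the genes were taken out after their values were seen. Of the measured genes, 4 of 11 for endoderm and 10 of 15 for blood and endothelium were below background on all arrays.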
